A study of Mus musculus with 6 samples.

Results

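The genes described here are 9 tight junction genes of the blood-testis barrier: the claudins Cldn11, Cldn3, Cldn4, Cldn7 and Cldn1, occludin (Ocln), the junctional adhesion molecule F11r, and the plaque genes Tjp1 and Cgn. They were chosen by name, as the rows whose Ensembl identifier maps to 1 of these symbols, and 9 of the 29275 genes listed in the deposited files are members. RNA was sequenced from 6 cultures of primary mouse Sertoli cells, 3 from wild-type (WT) mice left untreated and 3 from mice with a conditional knockout (cKO) of Arhgef15, a guanine nucleotide exchange factor gene. Both genotypes were grown in DMEM/F12 with 10% serum and EGF at 34 degrees C, so both are cultured cells kept apart from intact tubules. No source used here gives the driver of the deletion, the age or strain of the mice, or whether the libraries came from separate animals. The labels number them as biological replicates, and each p-value rests on how far these 6 libraries differ within their genotype.

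Sertoli cells line the seminiferous tubule, and the tight junctions between neighbouring Sertoli cells seal the compartment in which meiosis and sperm formation take place. Claudins, occludin and junctional adhesion molecules are the membrane proteins of these junctions, and plaque proteins such as ZO-1, the product of Tjp1, tie them to actin. Cldn11 is the claudin that Sertoli cells are best known for, and mice that lack it are sterile. Cldn3 has been described in newly forming barrier junctions of the mouse testis. Cldn4 and Cldn7 are known chiefly from other epithelia.

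Values are FPKM, fragments scaled by gene length and by the size of the library, which are corrected for length and so can be compared between genes. The 6 libraries held 16790000 to 20320000 fragments, as read from the step between neighbouring values. Arhgef15 itself was under 1 FPKM in all 6 libraries, at 0.0237 to 0.349 FPKM in WT and at 0.322 to 0.501 FPKM in cKO libraries. Its difference in log2(FPKM + 1), cKO minus WT, was 0.26 with an SE of 0.13 (limma over all genes listed, adjusted p = 0.903). The targeted gene thus did not have the lower level in the cKO-labelled libraries, although it was near the floor, and the groups are named here by their labels. Whether labels were exchanged was not tested, and every direction below rests on them. The labels do not name the deleted exons, and these gene-level values check the deletion only as far as it removes reads. WT replicate 3 stood apart from the other WT libraries: across the 12284 genes tested its Pearson correlation was 0.86 with WT replicate 1 and 0.898 with WT replicate 2, against 0.921 to 0.947 with the 3 cKO libraries. Differences of the members are therefore given with and without this library. It was picked out by its values, and leaving out a WT library that resembles the cKO libraries tends to widen the difference between genotypes. The adjusted p-values without WT replicate 3 follow that choice and are given as description only.

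The cell type of the cultures was checked with lists of marker genes, each given as its summed FPKM. Such a sum rests mostly on the most abundant markers of its list. The 20 Sertoli markers summed to 340.4, 306.1 and 834.4 FPKM in WT replicates 1, 2 and 3 and to 608.7 to 833.6 FPKM in cKO libraries. Sox9, a transcription factor that directs Sertoli cell differentiation, was at 5.97, 5.10 and 20.2 FPKM in WT and 22.3, 24.1 and 35.6 FPKM in cKO libraries, so Sox9 was lowest in WT replicates 1 and 2. These were the 2 lowest libraries for 11 of the 20 Sertoli markers, against 22.7% of genes tested. They were the 2 highest for 2, Inhbb and Sox8, which are named after their values were seen. Inhbb, an inhibin and activin subunit, was at 65.7, 85.4 and 6.04 FPKM in WT and 18.1, 15.4 and 32.6 FPKM in cKO libraries, and Gata4, a transcription factor of gonadal somatic cells, at 63.1, 48.4 and 29.6 and at 52.0, 41.5 and 55.9 FPKM. The Sertoli markers thus did not follow 1 pattern. The sum of the 13 macrophage markers went the other way, at 1246, 989.8 and 234.7 FPKM in WT replicates 1, 2 and 3 and 154.2 to 288.5 FPKM in cKO libraries. Lyz2 alone held 647.8, 576.9 and 66.5 FPKM of the WT sums. WT replicates 1 and 2 were the 2 highest libraries for 10 of the 13, and the share of all genes tested with this pattern is not given here. Cd14, named after its values were seen, was an exception, at 18.0, 13.3 and 32.6 FPKM in WT and 47.1, 48.4 and 9.45 FPKM in cKO libraries. Epithelial duct markers, 11 of 12 measured and 5 of these under 1 FPKM in every library, summed to 6.92, 3.92 and 59.1 FPKM across the WT libraries and 42.6, 19.7 and 12.0 FPKM across the cKO libraries, in replicate order. The 10 germ cell markers summed to 111.2, 65.1 and 360.8 FPKM in WT and to 355.2, 132.6 and 124.9 FPKM in cKO libraries. The 12 endothelial markers spanned 101.2 to 126.2 FPKM in WT and 105.7 to 177.2 FPKM in cKO libraries. Cdh5 and Eng, at 30.3 and 88.7 FPKM in WT replicate 1, made up most of that sum. WT replicates 1 and 2 were nonetheless the 2 lowest libraries for 10 of the 12 markers, against 22.7% of genes tested. Myoid markers, 7 in number, spanned 506.5 to 3050 FPKM in WT and 673 to 1264 FPKM in cKO libraries, with Acta2 alone at 2853 FPKM in WT replicate 1. The ranges were 647 to 1327 and 716.2 to 1131 FPKM for 8 stromal markers, and 200.1 to 374.5 and 142.9 to 243.2 FPKM for 7 Leydig cell markers. No marker on these lists was at 0 in every library. In bulk RNA, fewer cells of a type and less RNA per cell cannot be told apart, and the part of these markers in the differences below was not tested.

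The promoters of 4 members are shown, chosen after their values were seen. Cldn11 is the most abundant member, and Cldn3 and Cldn4 are neighbouring genes whose ratio varied between libraries. Cgn is the member with all cKO libraries above all WT libraries, as were 6.28% of genes tested. Each sequence is the 250 bases before the transcription start in RefSeq on GRCm38.p6, read 5′ to 3′ on the strand of the gene. Capitals mark GC boxes (GGGCGG, or CCGCCC on the other strand), CCAAT boxes (CCAAT or ATTGG) and the E-box form bound by Snail family repressors (CAGGTG or CACCTG). The Cldn11 window lies at chr3:31149670-31149919 on the plus strand, that of Cldn3 at chr5:134985964-134986213 on the plus strand, that of Cldn4 at chr5:134946935-134947184 on the minus strand and that of Cgn at chr3:94786483-94786732 on the minus strand.
Cldn11: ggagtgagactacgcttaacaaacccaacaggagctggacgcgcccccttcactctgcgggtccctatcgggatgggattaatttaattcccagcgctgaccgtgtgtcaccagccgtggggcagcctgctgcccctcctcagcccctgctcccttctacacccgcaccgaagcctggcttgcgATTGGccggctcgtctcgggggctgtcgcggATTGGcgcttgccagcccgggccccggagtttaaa
Cldn3: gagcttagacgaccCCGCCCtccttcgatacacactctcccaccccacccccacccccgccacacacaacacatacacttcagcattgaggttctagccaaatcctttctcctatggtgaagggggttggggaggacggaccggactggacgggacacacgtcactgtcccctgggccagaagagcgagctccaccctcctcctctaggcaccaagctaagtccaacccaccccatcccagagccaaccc
Cldn4: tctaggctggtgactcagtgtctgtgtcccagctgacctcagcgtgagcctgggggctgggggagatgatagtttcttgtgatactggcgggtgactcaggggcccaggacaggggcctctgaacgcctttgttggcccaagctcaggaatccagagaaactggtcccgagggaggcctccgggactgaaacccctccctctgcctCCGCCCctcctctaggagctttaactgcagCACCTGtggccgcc
Cgn: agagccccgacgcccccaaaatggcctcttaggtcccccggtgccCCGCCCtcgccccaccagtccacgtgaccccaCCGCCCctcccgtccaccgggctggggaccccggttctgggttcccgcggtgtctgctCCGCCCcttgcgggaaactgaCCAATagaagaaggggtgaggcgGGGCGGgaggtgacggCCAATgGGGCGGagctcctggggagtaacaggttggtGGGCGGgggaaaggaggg
The Cldn11 window held 2 CCAAT boxes and no GC box, and that of Cldn3 held 1 GC box and neither of the other motifs. Cldn4 had 1 GC box and 1 Snail-type E-box, and Cgn had 6 GC boxes and 2 CCAAT boxes. RefSeq gave windows for all 9 members, 11 windows in all, since Cldn7 and Ocln each have a pair of starts. A GC box was found in 9 of these 11 windows, against 32.7% of 32851 windows of the same length over all genes, a CCAAT box in 4, against 33.8%, and a Snail-type E-box in 4, against 17.2%. The 3 motifs do not contain one another. These matches describe the letters only.

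Cldn11 was the most abundant of the 9 genes by its mean over the 6 libraries. It was listed at 20.3, 20.8 and 88.2 FPKM in WT replicates 1, 2 and 3 while the cKO libraries, in the same order, held 73.0, 59.4 and 148.5 FPKM. WT replicates 1 and 2 were thus the lowest libraries, and WT replicate 3 lay inside the cKO range. Mean FPKM was 43.1 ± 39.1 in WT and 93.6 ± 48.0 in cKO (SD, n = 3 each). On the log2(FPKM + 1) scale, which understates changes of low genes, the difference was 1.34 with an SE of 0.60 and missed the threshold (limma, p adjusted by Benjamini-Hochberg over 12284 genes = 0.736). Without WT replicate 3 the log2 difference was 2.02 and passed the threshold of 0.05 (limma, adjusted p = 0.0372).

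**Figure D1:**
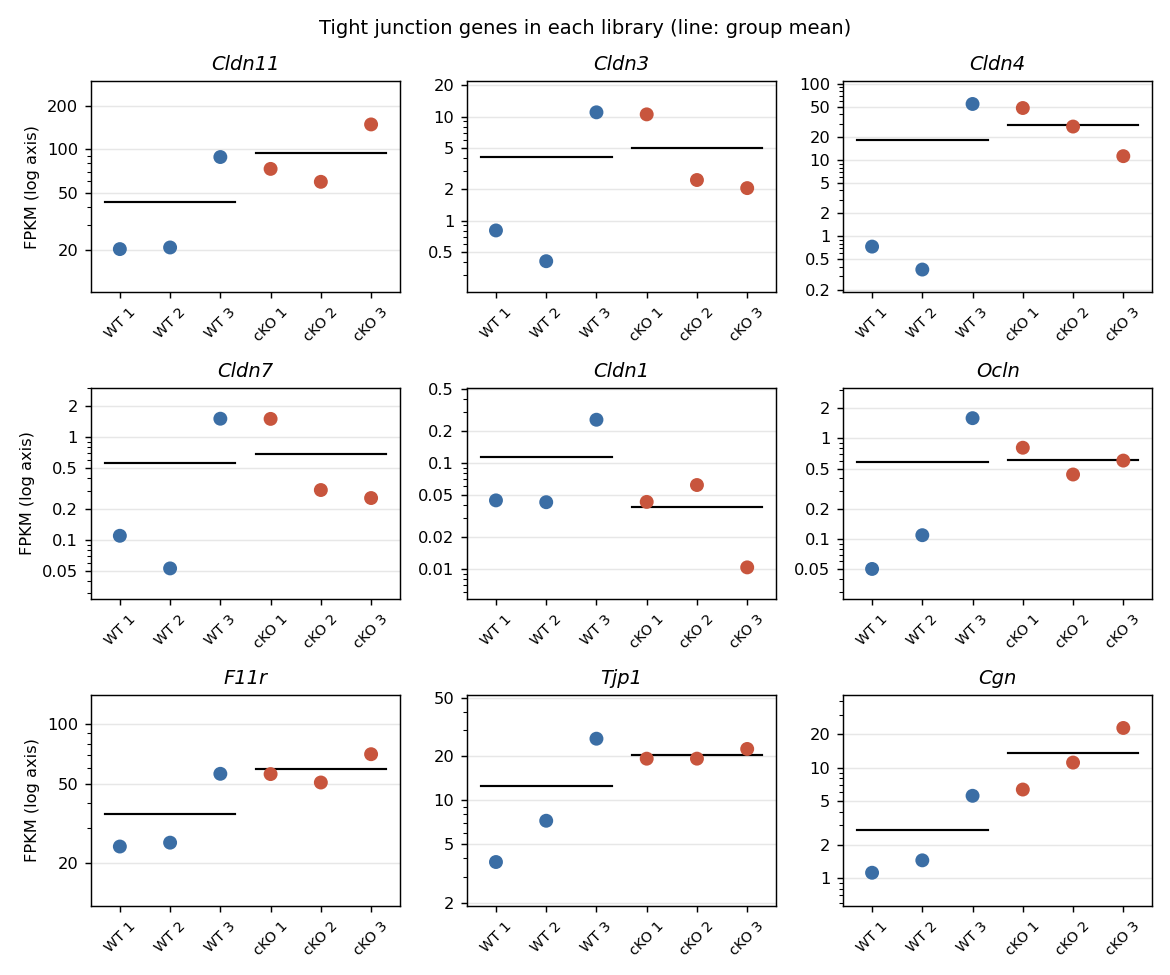
FPKM of the 9 genes in each of the 6 libraries on log axes (blue points: WT, red points: cKO, black lines: group means, n = 3 each). WT replicates 1 and 2 are the 2 lowest libraries in 8 of the 9 panels, Cldn1 being the exception, and WT replicate 3 sits among or above the cKO libraries in all panels but that of Cgn.

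Cldn4 varied most between libraries. It was at 0.734 and 0.367 FPKM in WT replicates 1 and 2, which rested on 25 and 13 fragments, and at 54.6 FPKM in WT replicate 3, which rested on 2016 fragments. The cKO libraries held 48.4, 27.6 and 11.3 FPKM in replicate order. WT replicate 3 was therefore the highest library and WT replicate 2 the lowest, 148.8-fold apart within 1 genotype. The difference between genotypes was 2.35 with an SE of 1.34 (limma, adjusted p = 0.786), and it was 4.07 without WT replicate 3 (limma, adjusted p = 0.0155).

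Cldn3 was listed at 0.805, 0.407 and 11.02 FPKM in the WT libraries and 10.5, 2.46 and 2.06 FPKM in the cKO libraries, each in replicate order. Cldn7 ran lower, at 0.110, 0.0526 and 1.52 FPKM in WT and 1.51, 0.306 and 0.255 FPKM in cKO libraries. In both genes WT replicate 3 and cKO replicate 1 were high and nearly level, the other cKO libraries were intermediate, and WT replicates 1 and 2 were low. Cldn3 differed by 0.67 with an SE of 0.86 (limma, adjusted p = 0.905), and without WT replicate 3 by 1.64 (limma, adjusted p = 0.153), so it did not pass either way. Cldn7 reached 1 FPKM in only 2 libraries and fell below the filter of 1 FPKM in at least 3. In the same model fitted over all 29275 genes it differed by 0.16 with an SE of 0.44 (limma, adjusted p = 0.96), and leaving out WT replicate 1, WT replicate 2 or cKO replicate 1 turned its direction. Leaving out WT replicate 3 gave 0.57 (limma, adjusted p = 0.584).

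Claudins 3 and 7 kept a nearly constant proportion. The ratio of Cldn3 to Cldn7 FPKM was 7.35, 7.74 and 7.27 across the WT libraries and 6.98, 8.05 and 8.05 across the cKO libraries, in replicate order, while each gene alone spanned more than 27-fold. Of the 36 pairs among the 9 genes this had the narrowest range, 1.15-fold from lowest to highest, followed by Cldn11 with Tjp1 at 2.31-fold. The pair was singled out after its values were seen. Counting error alone would allow a wider range, since Cldn7 rested on 4 and 2 fragments in WT replicates 1 and 2 and on 10 to 60 in the other libraries. The exact 95% interval of the ratio was 5.49 to 9.78 in WT replicate 3 and 1.65 to 72.6 in WT replicate 2 (Clopper-Pearson, counting error only).

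Cldn4 did not keep to this proportion, although it lies next to Cldn3. In RefSeq on GRCm38.p6, the starts of Cldn4 and Cldn3 lie 39.3 kb apart on chromosome 5, and the genes are on opposite strands, pointing away from each other. The ratio of Cldn4 to Cldn3 FPKM was 0.912 and 0.901 in WT replicates 1 and 2 and 4.96 in WT replicate 3. The cKO libraries gave 4.59, 11.2 and 5.49 in replicate order. The exact 95% intervals, 0.482 to 1.75 and 0.365 to 2.296 in WT replicates 1 and 2, lay below those of the other 4 libraries, the lowest of which began at 4.03. That of cKO replicate 2, 8.48 to 15.2, lay above the intervals of the remaining 5 libraries.

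**Figure D2:**
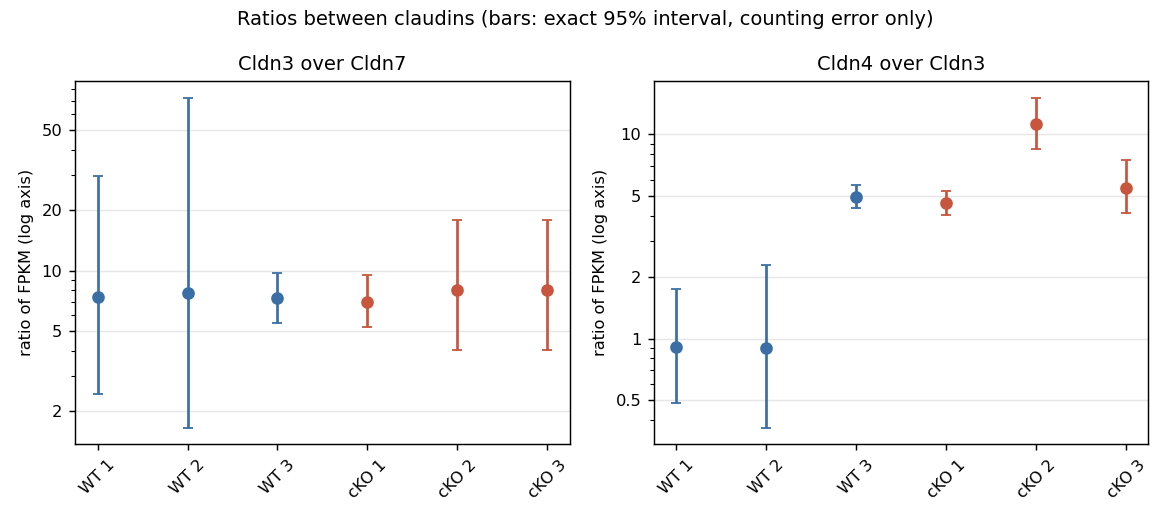
Ratio of FPKM between 2 claudins in each library on log axes (blue: WT, red: cKO; bars: exact 95% Clopper-Pearson intervals, counting error only). Cldn3 over Cldn7 stays between 6.98 and 8.05, while Cldn4 over Cldn3 runs from 0.901 in WT replicate 2 to 11.2 in cKO replicate 2.

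Some epithelial and germ cell markers were high in WT replicate 3, as these claudins were: it was the highest library for 9 of the 11 epithelial duct markers measured and for 5 of 10 germ cell markers. It was also the highest for 8 of the 20 Sertoli markers, and for 25.0% of all genes tested. Of the 11 duct markers, 5 stayed under 1 FPKM in every library. Epcam, an adhesion molecule of epithelia and spermatogonia, was at 0.121, 0.327 and 7.20 FPKM in WT and 4.96, 3.34 and 2.72 FPKM in cKO libraries, in replicate order. Dazl, a germ cell RNA-binding protein, was at 0.391, 0.966 and 27.4 FPKM in WT and 17.2, 0.92 and 2.92 FPKM in cKO libraries. Both genes, like Cldn3, Cldn7 and Cldn4, were highest in WT replicate 3 and second highest in cKO replicate 1. Krt8, a keratin of simple epithelia, was at 1.01, 0.471 and 9.40 FPKM in WT and 2.98, 0.821 and 0.661 FPKM in cKO libraries, where replicates 2 and 3 lay below WT replicate 1. Krt7 was under 1 FPKM in every library, and at 0.124 FPKM in cKO replicate 1 against 0.265 in WT replicate 1. Dazl in cKO replicate 2 lay below WT replicate 2, whereas Cldn4 in cKO replicate 2 lay far above it. Whether these transcripts and the claudins came from the same cells was not tested.

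**Figure D3:**
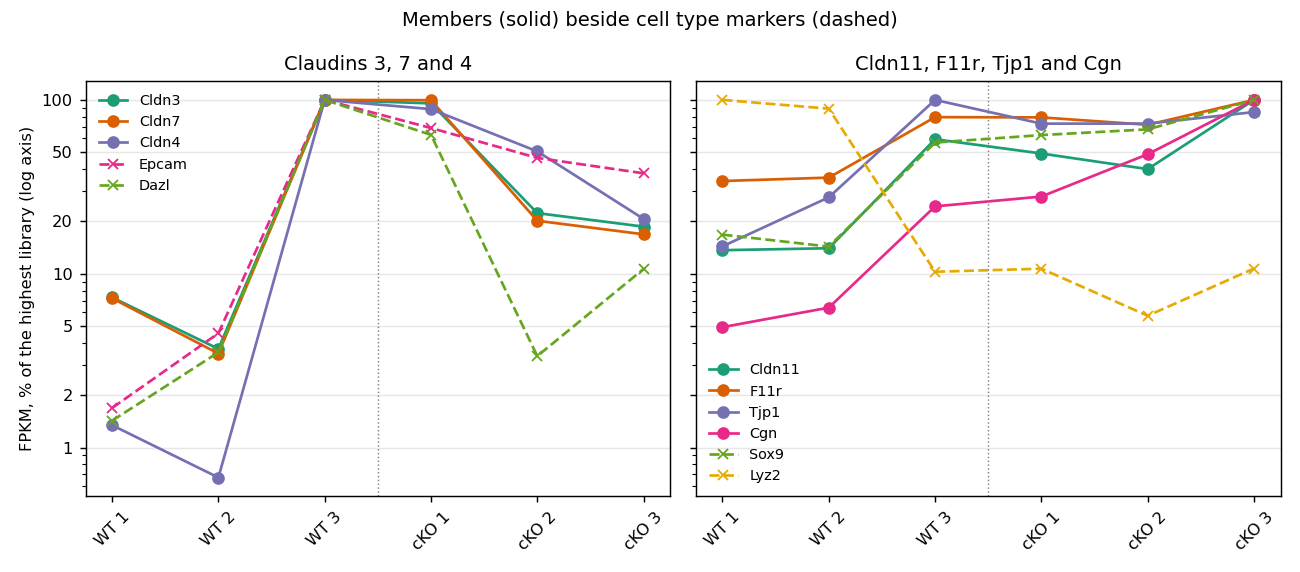
FPKM of each gene as a percentage of its highest library, on a log axis, for members (solid lines) and cell type markers (dashed lines); lines only join the points of 1 gene, and the dotted line separates WT from cKO libraries. Cldn3 and Cldn7 overlie each other with peaks in WT replicate 3 and cKO replicate 1. All members shown, and Sox9, are lowest in WT replicates 1 and 2, where Lyz2 is highest.

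Cldn1, a claudin of epidermal and many other barriers, was the least abundant member. It was listed at 0.0441, 0.0424 and 0.254 FPKM in WT and at 0.0426, 0.0615 and 0.0103 FPKM in cKO libraries, which rested on 4, 4 and 25 fragments and on 4, 5 and 1 fragments. Apart from WT replicate 3, every library was at 5 fragments or fewer, and the exact Poisson 95% intervals of those libraries overlapped. The difference was -0.10 with an SE of 0.08 over all genes listed (limma, adjusted p = 0.903) and -0.01 without WT replicate 3 (adjusted p = 0.909), so a difference was not detectable at this depth.

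Occludin, the first integral membrane protein found in tight junctions, was low in these cultures. Ocln was listed at 0.0505, 0.109 and 1.59 FPKM in WT replicates 1, 2 and 3, from 4, 9 and 136 fragments, and at 0.806, 0.437 and 0.601 FPKM in cKO libraries, from 66, 31 and 51 fragments. The cKO libraries were alike, and the WT libraries spanned 31.4-fold and enclosed them. Mean FPKM was 0.582 ± 0.870 in WT and 0.615 ± 0.185 in cKO (SD, n = 3 each), and the log2 difference over all genes listed was 0.15 with an SE of 0.37 (limma, adjusted p = 0.953). Its direction turned without WT replicate 1 or WT replicate 2, and without WT replicate 3 the difference was 0.57 (limma, adjusted p = 0.235).

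F11r encodes JAM-A, an adhesion molecule of epithelial and endothelial junctions that leukocytes and platelets also carry. It was the steadiest member, at 24.2, 25.3 and 56.3 FPKM across the WT libraries and 56.1, 50.9 and 70.7 FPKM across the cKO libraries, 2.93-fold from lowest to highest. WT replicate 3 again lay inside the cKO range. The log2 difference was 0.83 with an SE of 0.34 (limma, adjusted p = 0.72), and 1.22 without WT replicate 3 (limma, adjusted p = 0.0304).

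Tjp1, whose product ZO-1 binds claudins, occludin and actin, was at 3.78, 7.24 and 26.3 FPKM in WT and at 19.2, 19.2 and 22.4 FPKM in cKO libraries. The 3 cKO libraries agreed closely, at 20.3 ± 1.83 FPKM, against 12.4 ± 12.1 FPKM in WT libraries (SD, n = 3 each), and WT replicate 3 was the highest of all. The difference of 1.05 with an SE of 0.57 did not pass (limma, adjusted p = 0.77), and it was 1.76 without WT replicate 3 (limma, adjusted p = 0.0229).

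Cgn encodes cingulin, a plaque protein that binds ZO-1, actin and regulators of RhoA, and it was the only member whose genotypes did not overlap. It was at 1.12, 1.45 and 5.55 FPKM in the WT libraries and 6.33, 11.1 and 22.8 FPKM in the cKO libraries. All 3 cKO libraries lay above all 3 WT libraries, although WT replicate 3 was closer to cKO replicate 1 than to the other WT libraries. The means were 2.71 ± 2.47 and 13.4 ± 8.45 FPKM (SD, n = 3 each), a ratio of 4.94. The log2 difference of 1.98 with an SE of 0.55 had the smallest unadjusted p of the 9 genes, 0.00779, but did not pass over all genes tested (limma, adjusted p = 0.563). By exact permutation (two-sided) its p was 0.1, which is as low as 3 against 3 libraries can reach. Without WT replicate 3 the difference was 2.49 (limma, adjusted p = 0.0368).

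Across the 9 genes, 6 passed the filter and 0 of these 6 passed the test, against a background of 0.0163% of the 12284 genes tested. The other 3, Cldn1, Cldn7 and Ocln, did not pass over all genes listed either, where 0% did. Before adjustment, 2 members were higher in cKO libraries at the 0.05 level by limma, Cgn and F11r, against 3.87% of genes tested. Cgn was 1 member of 9 with all cKO libraries above all WT libraries, against 6.28% of genes tested. The cKO mean FPKM was the higher one in 8 of 9 members, Cldn1 being the exception. By log2 difference, 6 of the 6 tested members were above 0, against 59.8% of genes tested. The median log2 difference of the 6 tested members was 1.2, beside 0.08 over all genes tested. Cldn3 and Cldn4 reached 1 FPKM in 4 libraries each, WT replicate 3 and the cKO libraries, so they passed the filter only through the cKO libraries. Cldn1, Cldn7 and Ocln, below the filter, differed by -0.10, 0.16 and 0.15 and are not in that median. WT replicates 1 and 2 were the 2 lowest libraries in 8 of 9 members, against 22.7% of genes tested, and WT replicate 3 was the highest of all 6 libraries in 6 of 9, against 25.0%. Counts out of 9 include Cldn1, Cldn7 and Ocln, which are not among the genes tested. Of the tested members, only Cldn3, Cldn4 and Tjp1 were highest in WT replicate 3. Without WT replicate 3, 5 of the 6 tested members passed, all higher in cKO libraries and Cldn3 being the exception, against 2.47% of genes tested that were called higher. Leaving out any other library gave 0 of 6.

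**Figure D4:**
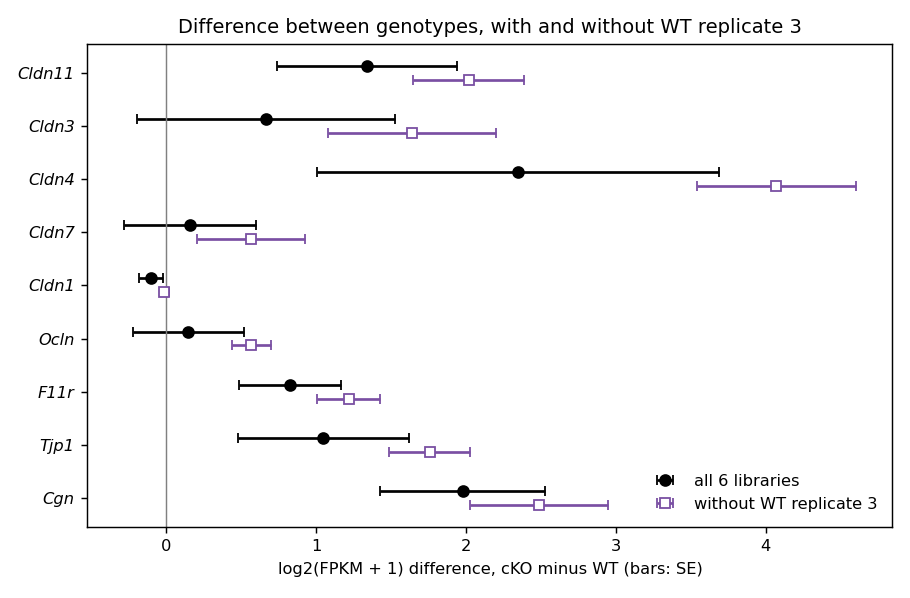
Difference in log2(FPKM + 1), cKO minus WT, for each gene with all 6 libraries (black circles) and without WT replicate 3 (open squares); bars are SE from limma, and Cldn7, Cldn1 and Ocln are from the fit over all genes listed. Cldn4 moves from 2.35 to 4.07 and Cldn11 from 1.34 to 2.02 when that library is left out, while Cldn1 stays near 0.

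Ordered by mean FPKM over the 6 libraries, Cldn11 (68.4) came first, followed by F11r (47.2), Cldn4 (23.8), Tjp1 (16.4), Cgn (8.05), Cldn3 (4.55), Cldn7 (0.625), Ocln (0.598) and Cldn1 (0.0758). Neighbours were taken to differ beyond their spread where the higher one led in all 6 libraries. This held for F11r over Cldn4 and for Cldn3 over Cldn7. In WT replicate 3, however, F11r led Cldn4 only narrowly, at 56.3 against 54.6 FPKM. These values rested on 3046 and 2016 fragments, and that lead was within counting error. Ocln also led Cldn1 in all 6, but in WT replicate 1 both rested on 4 fragments, so there the lead was within counting error. Cldn11 led F11r in 4 of 6 libraries, the exceptions being WT replicates 1 and 2. Cldn4 led Tjp1 in 3, Tjp1 led Cgn in 5, Cgn led Cldn3 in 4 and Cldn7 led Ocln in 2 of 6, so their order changed between libraries. Among the member claudins Cldn11 thus led in every library, at 1.51 to 56.7 times the FPKM of Cldn4. Outside the members its lead was narrower or absent in WT replicates 1 and 2, where Cldn11 was at 20.3 and 20.8 FPKM. There Cldn12 was at 14.2 and 19.2 FPKM, and the claudin-domain gene Cldnd1 at 31.1 and 35.6 FPKM, above Cldn11.

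Among the 13 Sertoli markers with at least 1 FPKM in every library, Cldn11 kept the steadiest ratio to Sox9, and the steadiness depended on the marker. The ratio of Cldn11 to Sox9 FPKM was 3.40, 4.08 and 4.36 in WT and 3.27, 2.46 and 4.17 in cKO libraries, so the groups overlapped and the range was 1.77-fold, against 7.32-fold for Cldn11 alone. The range was 1.85-fold against Wt1, 9.28-fold against Gata4 and 60.0-fold against Inhbb. The mean ratio was 3.95 ± 0.497 in WT and 3.30 ± 0.855 in cKO libraries (SD, n = 3 each; exact two-sided permutation test on the log2 ratio, p = 0.3, adjusted p = 0.54 over the 9 members). F11r per Sox9 was 4.05, 4.96 and 2.78 in WT and 2.51, 2.11 and 1.99 in cKO libraries, lower in every cKO library, whereas its FPKM had the higher mean there. Sox9 itself was higher in every cKO library than in any WT library, and 49.2% of genes tested were lower per Sox9 in all cKO libraries than in any WT library. Cldn1 per Sox9 was also lower in every cKO library, from very few fragments. For both genes the exact permutation test gave p = 0.1, the smallest possible, and adjusted p = 0.45. Cgn per Sox9 was 0.188, 0.285 and 0.274 in WT and 0.283, 0.460 and 0.639 in cKO libraries (exact permutation p = 0.2, adjusted p = 0.54), so its groups overlapped on this scale. In the remaining 5 members the groups overlapped as well, with exact permutation p from 0.3 to 0.8.

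The genes whose log2(FPKM + 1) followed Cldn11 most closely over the 6 libraries were Stk39, a stress-related kinase gene, with a Pearson r of 0.998, the adhesion molecule gene Cadm1 with 0.994, and Carmil1, an actin capping protein regulator, with 0.993. Those closest to Tjp1 were Ttc12 with 0.998, the Src family kinase Fyn with 0.997 and Afdn, the adaptor afadin of nectin junctions, with 0.997. Stk39 was at 7.66, 7.73 and 18.7 FPKM in WT and 17.9, 14.5 and 26.2 FPKM in cKO libraries. Among 7050 candidate genes, 72 exceeded 0.95 with Cldn11 and 210 with Tjp1, and over 6 libraries of which WT replicates 1 and 2 stand apart, such values describe only that shared contrast.

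Of 55 other tight junction genes measured, 32 were tested, 26 were higher and 6 lower in cKO libraries, and 0 passed by limma. Before adjustment, 7 were higher and 0 lower at the 0.05 level, against 3.87% of all genes tested that were higher at that level. The median log2 difference was 0.32, beside 0.08 over all genes tested, of which 59.8% were higher. Without WT replicate 3, 7 passed as higher and 1, Pmp22, as lower (3.89% of genes tested passed in either direction). Among the 26 higher genes, Cldn5, Cldn23 and Esam reached 1 FPKM only in WT replicate 3 and the cKO libraries.

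Among other claudins, 4 of 15 measured genes were tested, all 4 had higher cKO means, and their median log2 difference was 0.68. Of these, Cldn5 and Cldn23 reached 1 FPKM only in WT replicate 3 and the cKO libraries. They thus passed the filter only through the cKO libraries. Cldn5, the claudin of blood vessels, was at 0.264, 0.145 and 1.91 FPKM in WT and 4.08, 1.01 and 2.04 FPKM in cKO libraries (limma, adjusted p = 0.755). WT replicates 1 and 2 were also the 2 lowest libraries for 10 of the 12 endothelial markers, against 22.7% of genes tested. Pecam1 was at 0.317, 0.263 and 6.43 FPKM in WT and 7.99, 2.49 and 3.52 FPKM in cKO libraries. Eng went the other way, at 88.7, 72.8 and 36.1 FPKM in WT and 73.3, 44.6 and 46.0 FPKM in cKO libraries, and it is named here after its values were seen. The part of endothelial transcripts in the Cldn5 difference was not tested. Cldn23 differed by 1.08 (limma, adjusted p = 0.73), and by 1.58 without WT replicate 3 (adjusted p = 0.049), where it passed. Cldn12 differed by 0.41 (limma, adjusted p = 0.801) and the claudin-domain gene Cldnd1 by 0.17 (adjusted p = 0.908), and neither they nor Cldn5 passed without WT replicate 3 (adjusted p = 0.216, 0.27 and 0.101). A further 9 claudin genes stayed under 1 FPKM in every library. Cldn15 and Cldn6 did not, but fell below the filter and were not tested. Cldn15 had the lower mean in cKO libraries, at 1.71, 0.845 and 0.278 FPKM in WT and 0.219, 0.168 and 0.375 FPKM in cKO libraries. Cldn6 had the higher mean there, at 0.403 against 0.181 FPKM in WT libraries.

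Other membrane proteins of tight junctions had a median log2 difference of 0.90 over 8 tested genes, 6 higher and 2 lower. Jam2, a junctional adhesion molecule that Sertoli cells express, was at 6.48, 10.4 and 44.0 FPKM in WT and 30.9, 43.2 and 82.3 FPKM in cKO libraries, a difference of 1.65 (limma, adjusted p = 0.703). Ildr2, of the angulin family at tricellular contacts, differed by 1.48 (limma, adjusted p = 0.72), Clmp by 1.21 (adjusted p = 0.727) and the endothelial adhesion molecule Esam by 1.19 (adjusted p = 0.655). Pmp22, better known from myelin, went the other way, at 150.4, 166.1 and 36.1 FPKM in WT and 38.2, 36.4 and 60.9 FPKM in cKO libraries, and is named here after its values were seen. Ildr2 did not pass without WT replicate 3 (limma, adjusted p = 0.0567), whereas Jam2, Clmp and Esam passed as higher (adjusted p = 0.0308, 0.0128 and 0.0373) and Pmp22 as lower (adjusted p = 0.0185). Esam reached 1 FPKM only in WT replicate 3 and the cKO libraries, so it passed the filter only through the cKO libraries.

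Other plaque and polarity proteins had a median log2 difference of 0.26 over 20 tested genes, 16 higher and 4 lower. Pard6b, a subunit of the PAR polarity complex, was at 1.07, 1.37 and 15.4 FPKM in WT and 16.9, 13.7 and 22.1 FPKM in cKO libraries, a difference of 2.08 (limma, adjusted p = 0.652). Cgnl1, the cingulin paralogue paracingulin, differed by 0.72 (limma, adjusted p = 0.736) and Rab3b, a vesicle GTPase, by 0.98 (adjusted p = 0.77). Pard6b and Cgnl1 passed without WT replicate 3 (limma, adjusted p = 0.00768 and 0.0474), and Rab3b did not (adjusted p = 0.082).

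**Figure D5:**
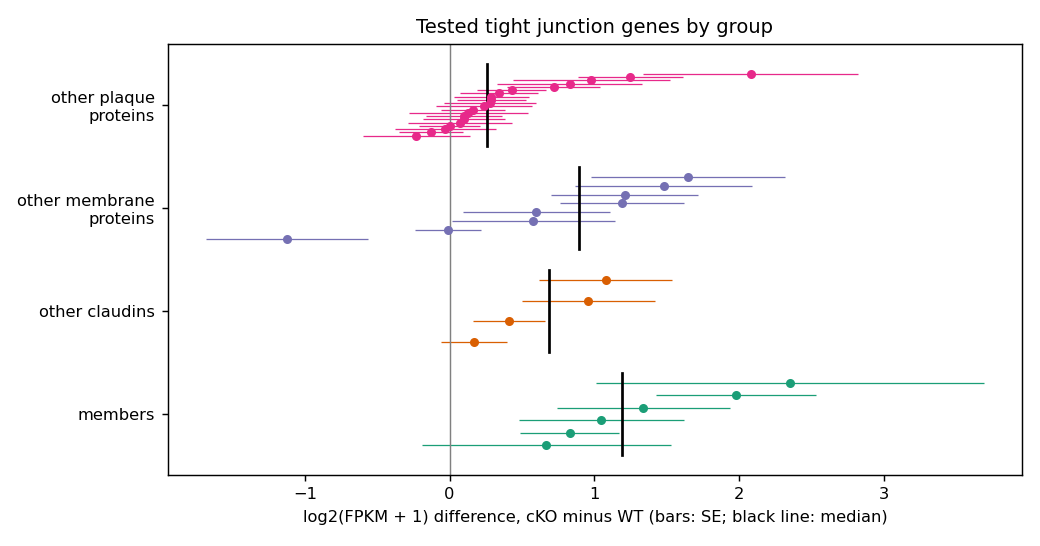
Difference in log2(FPKM + 1), cKO minus WT, of every tested tight junction gene by group (points: genes, bars: SE from limma, black lines: group medians). The medians are 1.2 for 6 members, 0.68 for 4 other claudins, 0.90 for 8 other membrane proteins and 0.26 for 20 other plaque proteins, and no gene passed the test with all 6 libraries.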

How the data were processed

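Each library came as 1 deposited table with 1 value per gene. Per the submitters' processing notes, the authors used FastQC and HISAT2 2.1.0 and named build mm8; how reads were counted, on which annotation and with what strand setting, is not given. The deposited values carry no unit and were taken as FPKM, since a value multiplied by the gene's exonic length (GENCODE M21) gave whole fragments in each library. This held for 99.0% to 99.4% of low values (at most 10 fragments, single-exon genes) within 0.02 times the fragment number. Fragments of 8 of 9 members came out whole within 0.05, and Cgn, whose length did not match, has none given. Intervals on fragments cover counting error only.

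The members and gene lists were chosen with earlier results of these data known. Values were taken as log2(FPKM + 1), and the test for genotype used limma 3.58.1 in R 4.3.3 on genes reaching 1 FPKM in 3 or more of the 6 libraries (trended eBayes; two-sided; Benjamini-Hochberg; threshold 0.05). Members below the filter were fitted over all genes listed. Exact permutation tests used scipy 1.17.1 in Python 3.11.15. Named beside the 9 members were up to 4 genes of each tight junction list with the smallest p, the first genes of the marker lists, and the 3 genes most correlated with Cldn11 and with Tjp1 (mean of 5 FPKM or more, leaving out predicted genes and pseudogenes); exceptions are stated, and 1 gene that this rule names is not reported here. Alternatives tried were no filter or a stricter one, a pseudocount of 0.1 or 5, scaling by median ratio or by quantiles, array weights, a block for replicate number, and leaving out single libraries. Symbols came from a table matching 28932 of 29275 identifiers. Promoters are RefSeq windows on GRCm38.p6, a later build than mm8, and no position from the files was used. Reads from overlapping antisense genes cannot be told apart where no strand setting is stated.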

Additional observations from a re-analysis of the deposited data

How the results depend on the processing

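The count of genes past the threshold was 2 with all 6 libraries and the planned filter. It was 0 without the filter on low values and 0 with the replicate number as a block, and it ran from 0 to 478 when 1 library was left out (4 without WT replicate 1, 478 without WT replicate 3, and 0 without each of the other libraries). It stayed at 2 with the stricter filter, with both other pseudocounts, with both scalings and with array weights, for which the weight estimation stopped before its tolerance was reached. The count of tested members past the threshold was 0 in every setting except without WT replicate 3, so leaving out 1 library gave 0 to 5 members. For the other tight junction genes the count was likewise 0 except without WT replicate 3, a range of 0 to 8. Of the 119 single-gene results under alternatives, 109 kept their direction and their side of the threshold, 5 passed it, each without WT replicate 3, and 5 turned direction. The last were Cldn7 at -0.02, -0.06 and -0.16 without WT replicate 1, WT replicate 2 and cKO replicate 1, and Ocln at -0.07 and -0.04 without WT replicate 1 and WT replicate 2; the cause was not tested. Without WT replicate 3, Cldn7 and Ocln were each at 0.57. Same-numbered libraries did not deviate together (correlations of 0.138, 0.032 and -0.206 across genes), so the numbers were not taken to pair the samples; the block changed no member's call, with Cgn at an adjusted p = 0.402 (limma). Depth limits Cldn1 throughout and Cldn7 and Ocln in WT replicates 1 and 2, where each rested on fewer than 10 fragments.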
